A study of Mus musculus with 2 samples.

Results

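The genes described here are p53 targets and inhibitors of the cell cycle, followed through single-cell transcriptomes of mouse tumours: Trp53, Cdkn1a, Mdm2, Bax, Ccng1, Bbc3, Gdf15, Cdkn2a, Cdkn1b and Gadd45b. They were taken by symbol and are 10 of the 32285 genes listed. The tumours came from MC38, a colon carcinoma line of the mouse, grown in C57BL/6 hosts. They were profiled as 1 library from MC38-RSPO3-OE cells, which overexpress the secreted Wnt enhancer RSPO3, and 1 library from MC38-Ctrl cells. The labels call the tissue a xenograft, although line and host are both mouse. The sources used here do not state the vector, how many clones or mice were used, the age or sex of the hosts, where the tumours grew or when they were taken. With 1 library per group no difference between the conditions can be tested, and all intervals below are 95% counting intervals that hold no variation between tumours.

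The transcription factor p53, encoded by Trp53, is held low by the ubiquitin ligase MDM2 and becomes stable after DNA damage or oncogene stress. It then switches on inhibitors of cyclin-dependent kinases, such as p21 from Cdkn1a, and mitochondrial death factors such as BAX and PUMA, the product of Bbc3. Its own inhibitor Mdm2 is also a target, which closes a feedback loop. Cdkn1a, Gadd45b and Gdf15 also respond to signals that do not need p53, among them TGF-beta, NF-kB and the integrated stress response.

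Levels were taken in 3 cell classes fixed by marker genes, as UMIs summed per class and library and divided by the class total (CPM, counts per 1e6 UMIs). Tumour cells held no UMI of the leukocyte gene Ptprc and at least 1 of Hmga2, a chromatin factor of embryonic and tumour cells. They numbered 4202 in RSPO3-OE and 4316 in Ctrl, with a median of 25393.5 and 21438 UMIs per cell. Dividing cells, with at least 3 UMIs of Mki67 and Top2a together, were 52.6% of the RSPO3-OE tumour cells (interval 51.1 to 54.2%) and 54.3% of the Ctrl tumour cells (52.8 to 55.8%). Macrophages, with at least 20 UMIs of C1qa, C1qb and C1qc, numbered 1181 and 1164. T cells, with at least 2 UMIs of Cd3d, Cd3e and Cd3g, numbered 406 and 203.

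The transgene was read where the label puts it. Rspo3 stood at 107 CPM in RSPO3-OE tumour cells, with a UMI in 931 of 4202 cells (22.2%), and at 0 UMIs in 4316 Ctrl tumour cells, which allows up to 0.0283 CPM. The class names were checked against markers outside the class rules. Csf1r stood at 513 CPM in RSPO3-OE macrophages and 514 CPM in Ctrl macrophages. The T cell receptor gene Trac stood at 569 CPM in RSPO3-OE T cells and 588 CPM in Ctrl T cells. In tumour cells Hmga2, which the class rule itself uses, stood at 351 CPM in RSPO3-OE, against 270.1 CPM in Ctrl. The epithelial keratin Krt8 differed more, with 539.5 CPM in RSPO3-OE, against 87.1 CPM in Ctrl. All 6 fibroblast markers were also detected in tumour cells, at a summed level of 3626 CPM in RSPO3-OE, against 2426 CPM in Ctrl, led by Dcn and Col3a1, with Dpt close to 0 at 0.104 and 0.123 CPM. Of these cells, 116 RSPO3-OE and 408 Ctrl tumour cells had fewer than 3 UMIs of Lum, Dpt, Pdgfra and Dcn. The sum of Y-linked genes in tumour cells was 0.364 CPM for RSPO3-OE and 0.189 CPM for Ctrl, against 154 and 96.4 CPM in macrophages of the same libraries. The tumour class was not matched to the MC38 line here.

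Cdkn1a encodes p21, the inhibitor that stops cyclin-dependent kinase 2 in p53 arrest. It is the member with the largest difference between RSPO3-OE and Ctrl tumour cells, and its upstream promoter window is shown because it carries the letters of the p53 consensus. The gene (ENSMUSG00000023067) lies at chr17:29090976-29100727 on the plus strand of mm10. RefSeq gives 2 start sites on GRCm38.p6, and the upstream window, chr17:29090729-29091028 on the plus strand, runs from 250 bases before its start to 50 after it. Capitals mark the p53 consensus decamers found in it by their letters on both strands, with overlapping matches allowed.
Cdkn1a upstream window: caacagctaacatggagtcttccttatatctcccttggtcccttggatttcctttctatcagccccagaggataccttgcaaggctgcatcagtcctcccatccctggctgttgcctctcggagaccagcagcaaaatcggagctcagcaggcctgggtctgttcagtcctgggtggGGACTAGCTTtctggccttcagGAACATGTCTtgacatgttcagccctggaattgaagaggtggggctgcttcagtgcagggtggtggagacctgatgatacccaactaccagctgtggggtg
Trp53 decamer: GGACTTGCCC
Mdm2 decamer: GAACTTGCCT
Bax decamer: AGGCAAGCTT
Ccng1 decamer: GGGCAAGCCT
The Cdkn1a pair spans chr17:29090906-29090937 with 12 bases between its decamers. Only exact matches were marked. The 10 bases directly after the second decamer miss the consensus in their first letter alone, so they stayed unmarked. The window of the other Cdkn1a start, chr17:29093519-29093818 on the plus strand, held 0 decamers. Single decamers stood in a window of Trp53 (chr11:69580284-69580293, plus strand), Mdm2 (chr10:117710935-117710944, minus strand), Bax (chr7:45467090-45467099, minus strand) and Ccng1 (chr11:40755462-40755471, minus strand). All 10 genes matched RefSeq, with 15 windows in all, of which 5 held at least 1 decamer and 1 held a pair at most 13 bases apart. Of 32807 windows in the RefSeq table, 8.36% held a decamer and 24 (0.0732%) held such a pair. A match describes letters and not binding.

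Of the 9 members with at least 10 UMIs in tumour cells, 1 was at least 1.5-fold higher in RSPO3-OE, Cdkn1a, and none was 1.5-fold lower. Of all 15189 genes measured there, 13.3% were 1.5-fold higher and 17% were 1.5-fold lower, 30.3% in all. With median-of-ratios scaling 2265 genes were higher and 2137 lower, against 2019 and 2583 as scaled here, so the side with more genes depends on the scaling. With that scaling 2 members were 1.5-fold higher in tumour cells, Cdkn1a and Mdm2 (0.60). The median log2 ratio of RSPO3-OE over Ctrl was 0.02 over all 10 members and -0.09 for all genes. The first value counts in Cdkn2a, at -1.12 from 1 RSPO3-OE and 2 Ctrl UMIs.

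**Figure D1:**
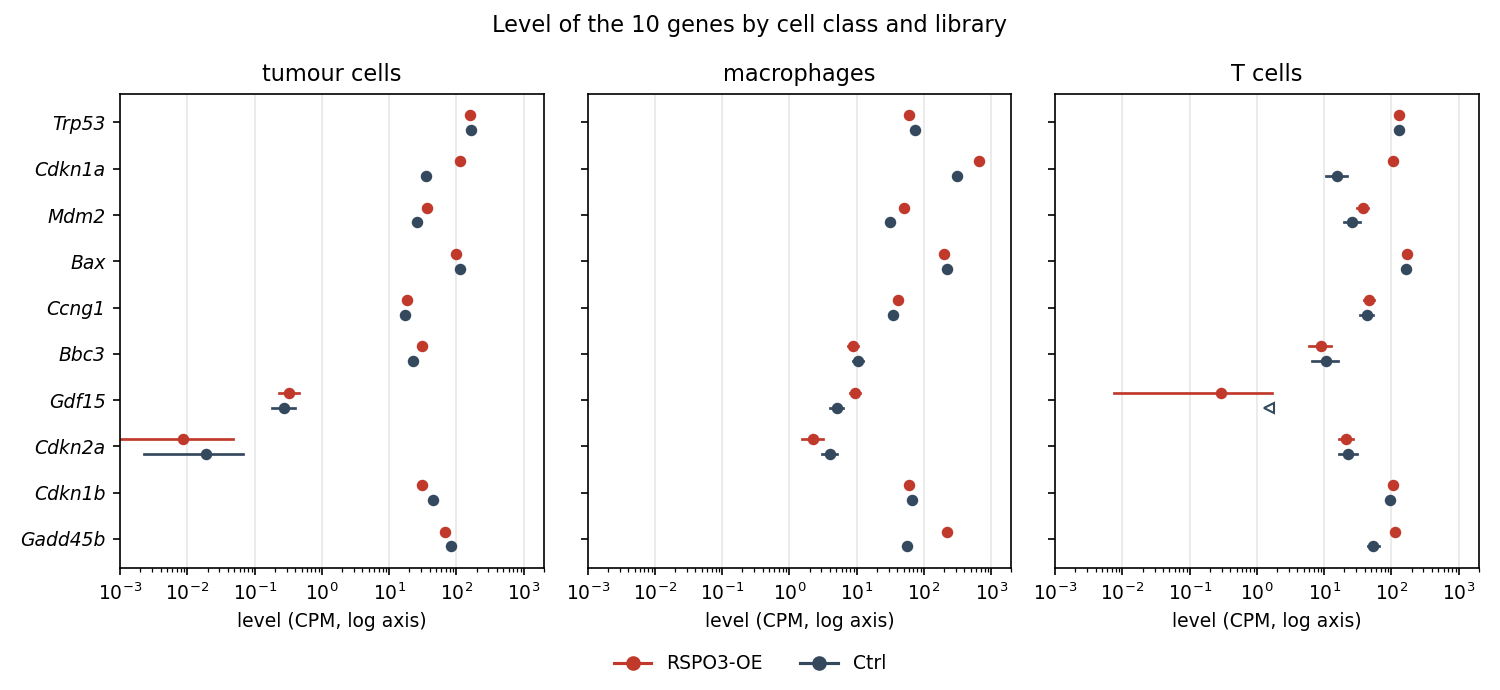
Level of each of the 10 genes (CPM, log axis) in tumour cells, macrophages and T cells, RSPO3-OE drawn above Ctrl, with lines for 95% counting intervals and an open triangle for the limit of 3 counts where a library had 0 UMIs. Cdkn1a is separated in all 3 panels, from 111 against 35.1 CPM in tumour cells to 662 against 311 CPM in macrophages, whereas Trp53 nearly coincides in tumour cells and T cells.

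Trp53 (ENSMUSG00000059552, chr11:69580359-69591873, plus strand) itself hardly differed between the libraries in tumour cells. Its level was 161 CPM in RSPO3-OE, against 167 CPM in Ctrl tumour cells, a log2 ratio of -0.05 (-0.08 to -0.02). A UMI was seen in 89.5% of RSPO3-OE and 84.1% of Ctrl tumour cells, but with each cell thinned to 5000 UMIs these shares were 49.8% and 49.1%. Its transcript level says nothing of the amount of p53 protein, which is set mainly by turnover. In macrophages Trp53 was read at 59.8 CPM in RSPO3-OE, against 73.1 CPM in Ctrl (log2 ratio -0.29). In T cells it was read at 131 CPM in RSPO3-OE, against 129 CPM in Ctrl, between its levels in tumour cells and macrophages.

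Mdm2 (ENSMUSG00000020184, chr10:117688875-117710758, minus strand), the ligase that marks p53 for degradation, was higher in RSPO3-OE in every class, by less than 1.5-fold except in macrophages. Tumour cells held 37.1 CPM in RSPO3-OE, against 26.0 CPM in Ctrl, a log2 ratio of 0.51 (0.44 to 0.58). The values were alike in dividing cells, with 37.0 and 26.1 CPM, and in non-dividing cells, with 37.3 and 26.0 CPM. In macrophages it stood at 50.9 CPM in RSPO3-OE, against 30.8 CPM in Ctrl (log2 ratio 0.72, 0.56 to 0.89), and in T cells at 37.3 and 26.2 CPM (0.51, 0.03 to 1.01). With each macrophage thinned to 2000 UMIs the ratio was 0.46, under 1.5-fold. The T cell interval reaches nearly to 0 at 126 and 52 UMIs, and without T cells that held Hmga2 the ratio was 0.27.

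The p21 transcript itself was 3.17-fold as abundant in RSPO3-OE tumour cells. Cdkn1a stood at 111 CPM in RSPO3-OE, against 35.1 CPM in Ctrl, a log2 ratio of 1.67 (1.61 to 1.72) that lay above 95.2% of the genes measured. A UMI was found in 69.2% of RSPO3-OE and 35.4% of Ctrl tumour cells. At an equal depth of 5000 UMIs the shares were 33.9% in RSPO3-OE and 13.5% in Ctrl, so the difference was present at equal depth. It was spread over many cells: at that depth 7.62% of RSPO3-OE cells held 2 Cdkn1a UMIs, against 2.19% of Ctrl cells, and 0.406% and 0.0944% held 5 or more. A gene on the other strand overlaps Cdkn1a in the annotation and is not among the genes listed in the files.

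**Figure D2:**
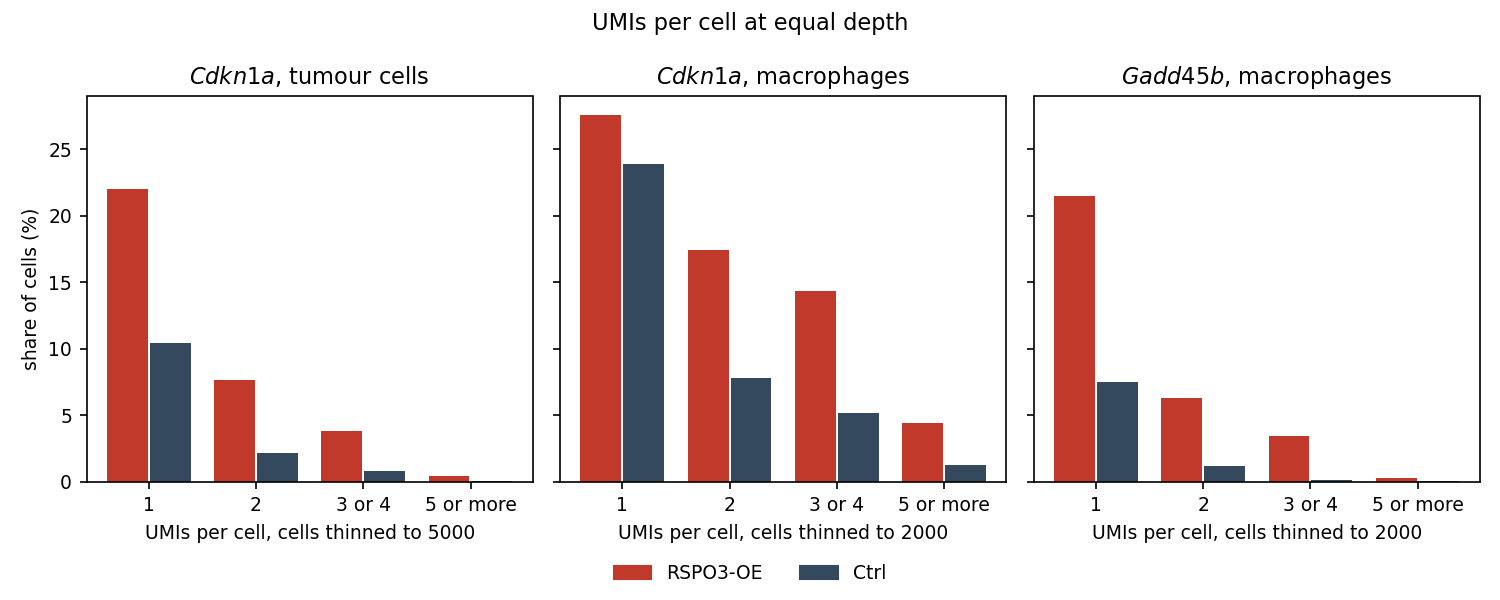
Share of cells (%) with 1, 2, 3 or 4, and 5 or more UMIs of Cdkn1a in tumour cells, Cdkn1a in macrophages and Gadd45b in macrophages, RSPO3-OE bars left of Ctrl bars, after thinning tumour cells to 5000 and macrophages to 2000 UMIs. The RSPO3-OE bar is the taller in each bin, with 22.0% of RSPO3-OE and 10.4% of Ctrl tumour cells at 1 Cdkn1a UMI.

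The same gene differed in the immune cells of the tumours. Macrophages had the highest level of Cdkn1a among the classes in both libraries, 662 CPM in RSPO3-OE, against 311 CPM in Ctrl (log2 ratio 1.09, 1.04 to 1.14), with a UMI in 91.7% and 76.2% of cells. At 2000 UMIs per cell the shares were 63.8% and 38.2%. Tumour markers were also read in macrophages, Krt8 at 2.34% of its tumour cell level in RSPO3-OE and 2.27% in Ctrl, Hmga1 at 13.4% and 9.47%, and Rspo3 at 4.40% in RSPO3-OE. Cdkn1a itself stood in macrophages at 594% of its tumour cell level in RSPO3-OE and 886% in Ctrl. T cells held 360 Cdkn1a UMIs in RSPO3-OE and 31 in Ctrl, or 107 and 15.6 CPM (log2 ratio 2.77, 2.24 to 3.35). The order of classes was macrophages above tumour cells above T cells in both libraries, with tumour and T cells of RSPO3-OE within counting error of each other. The difference was present in dividing macrophages (log2 ratio 1.20) and non-dividing ones (1.05), and in macrophages without UMIs of the monocyte genes Ly6c2, Ccr2 and Chil3 (1.0). In T cells it was 2.44 among dividing and 3.44 among non-dividing cells, the second resting on 187 RSPO3-OE and 9 Ctrl UMIs.

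The death factors differed less. Bax (ENSMUSG00000003873, chr7:45461697-45466898, minus strand), whose product opens the outer mitochondrial membrane, stood at 99.9 CPM in RSPO3-OE, against 113 CPM in Ctrl tumour cells (log2 ratio -0.18, -0.22 to -0.14). Macrophages had 199 and 222 CPM, and T cells 170.2 and 163 CPM. Bax thus differed between the libraries by less than 1.5-fold in each class, and an overlapping gene on its strand is not among the genes listed. Bbc3 (ENSMUSG00000002083, chr7:16308393-16318205, plus strand), which encodes the BH3-only protein PUMA, stood at 30.3 CPM in RSPO3-OE, against 22.6 CPM in Ctrl tumour cells (log2 ratio 0.43, 0.35 to 0.50). In macrophages it was read at 8.89 and 10.5 CPM, and in T cells at 8.88 and 10.6 CPM from 30 and 21 UMIs. Both immune intervals include 0.

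Ccng1 and Gdf15 are further p53 targets. Ccng1 (ENSMUSG00000020326, chr11:40748552-40755311, minus strand) encodes cyclin G1, which recruits a phosphatase to MDM2. It stood at 18.1 CPM in RSPO3-OE, against 17.1 CPM in Ctrl tumour cells (log2 ratio 0.08, -0.01 to 0.18), at 41.6 and 34.3 CPM in macrophages (0.28, 0.11 to 0.45), and at 46.8 and 43.3 CPM in T cells (0.11, -0.28 to 0.51). The macrophage interval is the only one of the 3 that leaves out 0.

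Gdf15 (ENSMUSG00000038508, chr8:70629393-70632456, minus strand), a stress cytokine of the TGF-beta family, was rare in tumour cells. There were 38 UMIs in 22 of 4202 RSPO3-OE cells and 29 UMIs in 10 of 4316 Ctrl cells (log2 ratio 0.27, -0.47 to 1.02). The 3 cells with most Gdf15 gave 17 of these UMIs in RSPO3-OE and 22 in Ctrl, so single cells carry the level. Macrophages held more of it, 137 UMIs in 61 RSPO3-OE cells and 79 UMIs in 31 Ctrl cells, or 9.37 and 5.03 CPM (log2 ratio 0.90, 0.49 to 1.32). There too few cells carry the level: the top 1% of macrophages held 50.4% of these UMIs in RSPO3-OE and 67.1% in Ctrl. T cells held 1 UMI in RSPO3-OE and 0 in Ctrl, where 0 UMIs in 203 cells allows up to 1.51 CPM.

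Of the kinase inhibitors that do not depend on p53, Cdkn1b was lower in RSPO3-OE tumour cells and Cdkn2a was almost unread there. Cdkn1b (ENSMUSG00000003031, chr6:134920401-134925513, plus strand) encodes p27, a brake of quiescent cells. It was lower in RSPO3-OE tumour cells by less than 1.5-fold, with 31.2 CPM in RSPO3-OE, against 44.9 CPM in Ctrl (log2 ratio -0.52, -0.59 to -0.46). Under 5 of 16 alternative settings this ratio passed 1.5-fold. At 5000 UMIs per cell 14.9% of RSPO3-OE and 19.8% of Ctrl tumour cells held a UMI. Macrophages had 61.1 and 67.2 CPM and T cells 107 and 95.6 CPM, both closer than in tumour cells. Cdkn1a and Cdkn1b, 2 inhibitors of the same protein family, therefore stood on opposite sides of Ctrl in tumour cells.

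Cdkn2a (ENSMUSG00000044303, chr4:89274471-89294653, minus strand) encodes p16INK4a, an inhibitor of cyclin D kinases, and p19ARF, which binds MDM2. It was almost unread in tumour cells, with 1 UMI in RSPO3-OE and 2 in Ctrl, all in dividing cells. Its neighbour Cdkn2b, 11.6 kb away, had 1 and 0 UMIs there, while Mtap on the other side was read at 244 CPM in RSPO3-OE, against 296 CPM in Ctrl. A count does not tell a lost gene from a silent one, and this was not tested. In macrophages Cdkn2a had 33 UMIs in RSPO3-OE and 63 in Ctrl, or 2.26 and 4.01 CPM (log2 ratio -0.83, -1.48 to -0.20). In T cells it had 71 and 45 UMIs, or 21.0 and 22.6 CPM (log2 ratio -0.11, -0.67 to 0.47), and 70 and 45 of these lay in T cells with a Cd8a or Cd8b1 UMI. In both immune classes it stood higher in dividing cells: 6.28 CPM in RSPO3-OE, against 9.67 CPM in Ctrl among dividing macrophages, against 0.989 and 1.70 CPM among the others, and 28.4 and 29.3 CPM among dividing T cells, against 16.2 and 16.9 CPM among the others. The T cell levels rest on 38 RSPO3-OE and 27 Ctrl UMIs in dividing cells and 33 and 18 in the others.

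Gadd45b (ENSMUSG00000015312, chr10:80930073-80932204, plus strand), a stress sensor that activates the p38 kinase cascade and is induced by NF-kB and TGF-beta, stood lower in RSPO3-OE in tumour cells and higher in immune cells. Tumour cells held 68.5 CPM in RSPO3-OE, against 82.3 CPM in Ctrl (log2 ratio -0.27, -0.31 to -0.22). Macrophages held 219.7 CPM in RSPO3-OE, against 55.8 CPM in Ctrl, a log2 ratio of 1.98 (1.87 to 2.09) above 98.9% of genes measured in that class, with a UMI in 67.3% and 32.4% of cells. T cells held 112 and 53.8 CPM (log2 ratio 1.06, 0.74 to 1.38). The T cell value depended on which cells were kept: it was 0.12 in dividing, 2.02 in non-dividing, 0.64 in CD8 and 1.62 in other T cells. The 18 RSPO3-OE and 18 Ctrl T cells with an Hmga2 UMI (4.43% and 8.87%) move with it: without them Gadd45b stood at 118 CPM in RSPO3-OE, against 28.4 CPM in Ctrl (log2 ratio 2.05). Krt8, the tumour keratin, stood at 48.2 CPM in RSPO3-OE, against 120.2 CPM in Ctrl T cells with those cells kept, and at 3.91 CPM and 0 UMIs without them.

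In macrophages 4 of 10 members were thus at least 1.5-fold higher in RSPO3-OE, Cdkn1a, Mdm2, Gdf15 and Gadd45b, and 1 was lower, Cdkn2a. Of 12668 genes measured there, 11% were higher and 8.55% lower, 19.6% in all. In T cells 2 of 9 members with 10 UMIs were higher, Cdkn1a and Gadd45b, and none was lower, beside 10% higher and 18.2% lower of 10961 genes. The median ratio over all 10 members was 0.07 in macrophages and 0.09 in T cells, beside 0.03 and -0.05 for all genes. The T cell median counts in Gdf15, with 1 RSPO3-OE and 0 Ctrl UMIs.

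**Figure D3:**
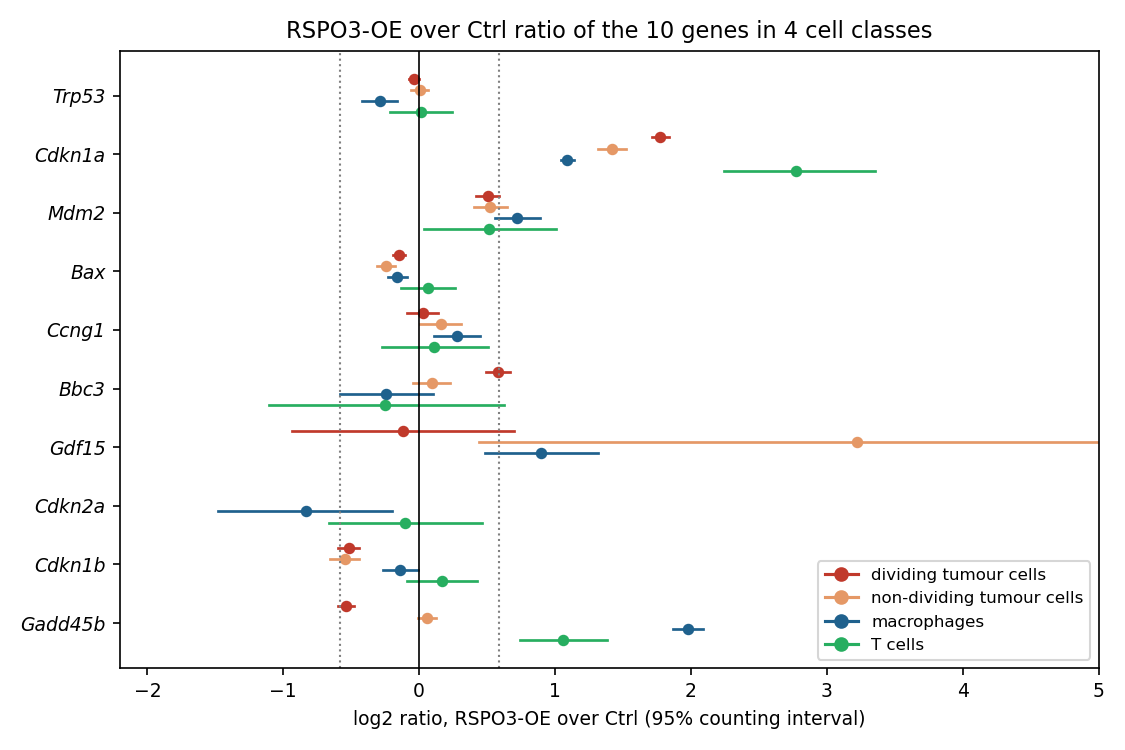
Log2 ratio of RSPO3-OE over Ctrl for each gene in dividing and non-dividing tumour cells, macrophages and T cells, with 95% counting intervals; dotted lines mark 1.5-fold, members under 10 UMIs are left out, and the Gdf15 interval of non-dividing cells is drawn only to 5. Cdkn1a lies right of the dotted line in all 4 classes, from 1.09 in macrophages to 2.77 in T cells, while Gadd45b ranges from -0.54 in dividing tumour cells to 1.98 in macrophages.

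Some members differed between the dividing and non-dividing tumour cells of each library. Summed fibroblast markers differed too, at 1859 CPM in dividing and 6998 CPM in non-dividing RSPO3-OE cells, and at 1324 and 4792 CPM in Ctrl. The part of stromal cells in the members' values was not tested. Under the main division limit Trp53 was the member at least 1.5-fold higher in dividing cells of both libraries. It stood at 187 CPM in dividing and 114 CPM in non-dividing RSPO3-OE cells (log2 ratio 0.72, 0.67 to 0.77). In Ctrl it stood at 192 and 113 CPM (0.76, 0.71 to 0.81). Division was called on unthinned UMIs, and dividing cells were the deeper ones. Their median was 32507.5 UMIs against 18923.5 in RSPO3-OE, and 28901 against 16081 in Ctrl. With division called at 1 UMI on thinned cells, 0 members were 1.5-fold higher in Ctrl, so Trp53 was under 1.5-fold there. In RSPO3-OE 2 members were higher under that setting. Of 9 members measured, 1 was at least 1.5-fold higher in dividing RSPO3-OE cells, Trp53, and 1 lower, Gadd45b, beside 14.7% and 13.5% of 14248 genes. In Ctrl 2 were higher, Trp53 and Gdf15, and none lower, beside 14.5% and 12.9% of 14003 genes. The Gdf15 value compares 28 UMIs in dividing Ctrl cells with 1 UMI in the others.

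Cdkn1a, a gene of arrest, was not lower in dividing cells. In RSPO3-OE it stood at 126 CPM in dividing and 84.1 CPM in non-dividing cells (log2 ratio 0.58, 0.52 to 0.64), and in Ctrl at 36.7 and 31.4 CPM (0.22, 0.12 to 0.33). The RSPO3-OE over Ctrl ratio was accordingly 1.77 (1.71 to 1.84) in dividing and 1.42 (1.32 to 1.52) in non-dividing cells, both past 1.5-fold. Bbc3 had the same order, with a ratio of 0.58 (0.49 to 0.67), just inside 1.5-fold, in dividing cells from 33.0 and 22.1 CPM, and 0.09 (-0.04 to 0.23) in non-dividing cells from 25.2 and 23.6 CPM. Gadd45b stood at 52.6 CPM in RSPO3-OE, against 76.5 CPM in Ctrl dividing cells (-0.54, -0.60 to -0.48), but at 98.8 and 94.97 CPM in non-dividing cells (0.06, -0.01 to 0.13). Cdkn1b differed alike in both, by -0.52 and -0.55. In dividing cells 1 of 9 members was higher, Cdkn1a, beside 12.3% of 14526 genes, and in non-dividing cells 2 of 9, Cdkn1a and Gdf15, beside 12.2% of 13760 genes. None was 1.5-fold lower in dividing cells, beside 16.5% of genes, or in non-dividing cells, beside 16.9%. Gdf15 rests there on 11 RSPO3-OE UMIs and 1 Ctrl UMI.

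**Figure D4:**
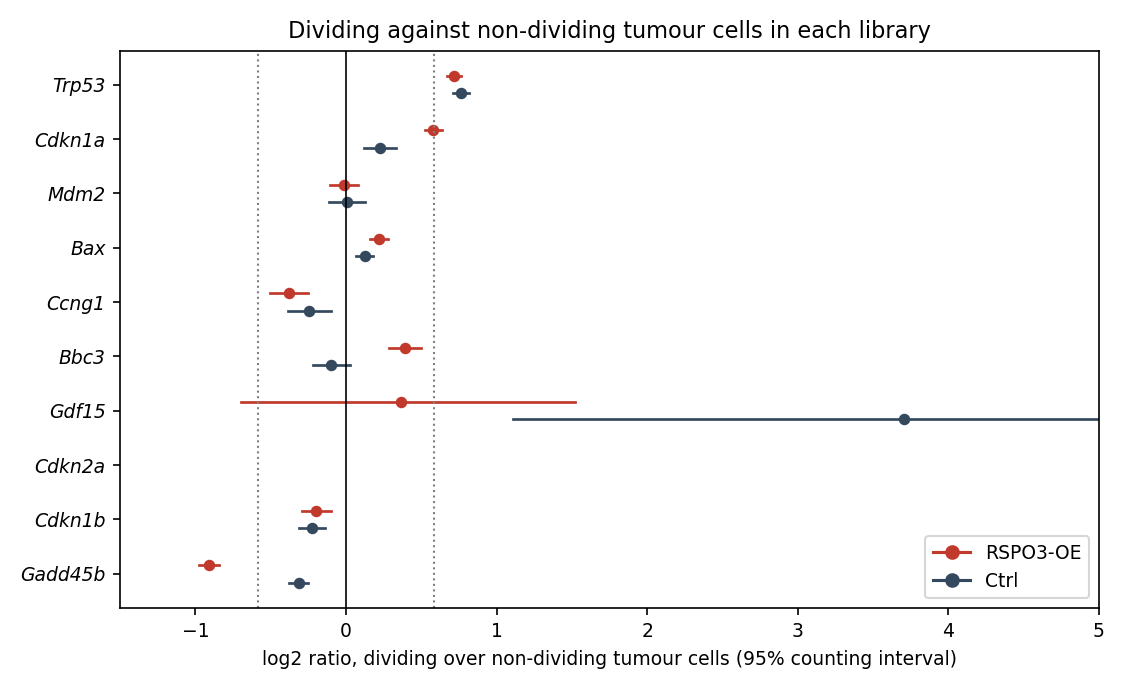
Log2 ratio of dividing over non-dividing tumour cells for each gene, RSPO3-OE drawn above Ctrl, with 95% counting intervals, dotted lines at 1.5-fold and the Ctrl Gdf15 interval drawn only to 5; Cdkn2a is left out for low counts. Trp53 lies at 0.72 in RSPO3-OE and 0.76 in Ctrl, and Gadd45b at -0.91 and -0.31.

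Within the RSPO3-OE library the members were compared between 347 tumour cells with at least 10 Rspo3 UMIs and 3271 with none. Cdkn1a stood at 139.6 CPM in cells with high Rspo3 and 107 CPM in cells with none (log2 ratio 0.38, 0.30 to 0.46), and Bbc3 at 39.6 and 28.8 CPM (0.46, 0.31 to 0.61). The Cdkn1a level in cells without an Rspo3 UMI was thus also above the 35.1 CPM of Ctrl tumour cells. A cell without an Rspo3 UMI may still express Rspo3, since counts per cell are sparse. Gdf15 was the 1 member past 1.5-fold, at 1.57 and 0.15 CPM (3.39, 2.26 to 4.55), beside 8.41% of 14039 genes, and none was 1.5-fold lower, beside 7.07%. The Gdf15 value rests on 17 UMIs in 6 cells with high Rspo3, 14 of them in 3 cells, and on 13 UMIs in 11 cells with none. The other measured members lay between -0.25 for Ccng1 and 0.19 for Cdkn1b. The cells with high Rspo3 were the deeper ones, with a median of 28727 UMIs against 24491, and the part of depth was not tested.

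Genes of rapid stress and handling responses moved with the library and were set beside the members. The 16 immediate early and handling genes took 1.42% of tumour cell UMIs in RSPO3-OE and 0.841% in Ctrl. With tumour cells split at the median of that share over both libraries, 2730 RSPO3-OE and 1529 Ctrl cells lay at or above it. Cdkn1a had a ratio of 1.61 (1.53 to 1.68) below that median and 1.32 (1.24 to 1.41) at or above it. Gadd45b was -0.58 below and -0.54 at or above it, both lower than the pooled -0.27. Cdkn1b was -0.59 below and -0.80 at or above it, both past 1.5-fold. Bbc3 was 0.49 below and 0.08 at or above it, and Trp53 was 0.03 and 0.27. Split by mitochondrial share, which had a median of 2.85% in RSPO3-OE and 3.94% in Ctrl tumour cells, Cdkn1a was 1.54 below and 1.61 at or above the median. Split by the share of interferon response genes it was 1.86 below and 1.62 at or above the median. The part of handling, mitochondrial and interferon genes in the ratios was not tested for any member, Cdkn1a included.

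**Figure D5:**
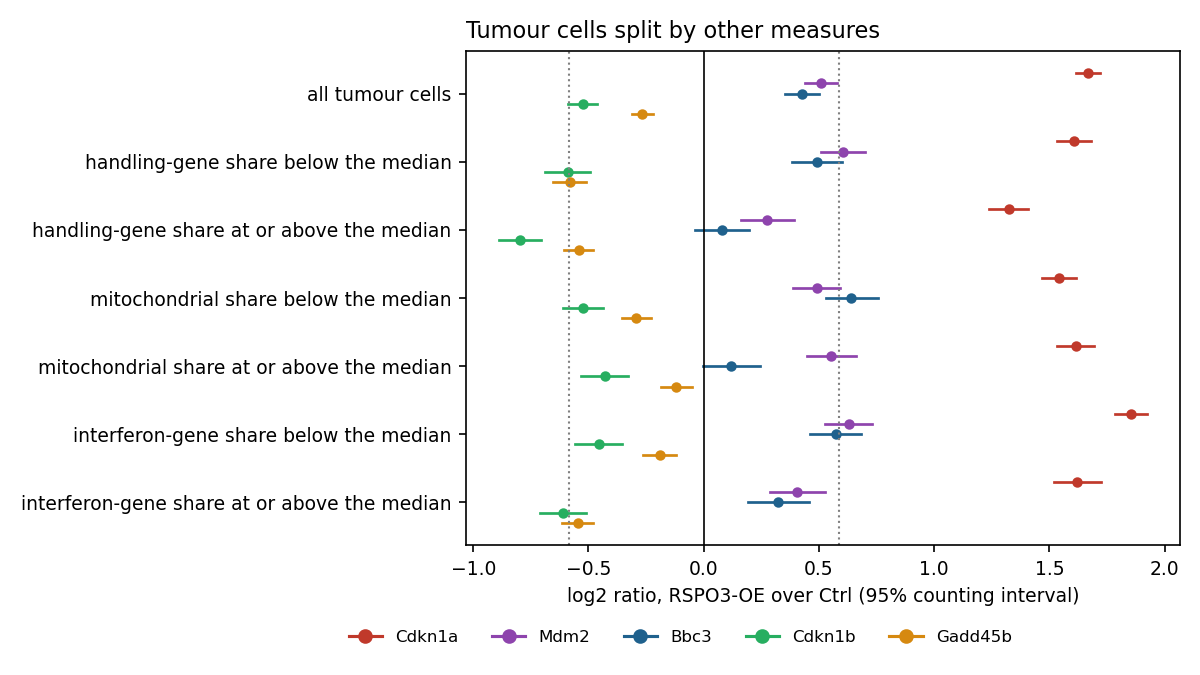
Log2 ratio of RSPO3-OE over Ctrl for Cdkn1a, Mdm2, Bbc3, Cdkn1b and Gadd45b in all tumour cells and in cells below and at or above the median of the handling-gene, mitochondrial and interferon-gene shares, with 95% counting intervals and dotted lines at 1.5-fold. Cdkn1a stays right of the dotted line in every row, from 1.32 to 1.86, and Bbc3 moves between 0.08 and 0.64.

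Genes held by 2 of the lists are counted in both. Each tumour cell count below stands beside 13.3% of all genes higher and 17% lower in that class. Other p53 targets in tumour cells were divided. Of 31 measured, 8 were at least 1.5-fold higher and 3 lower in RSPO3-OE, with a median ratio of 0.19 beside -0.09 for all genes. The highest were the adenylate kinase gene Ak1, with 6.83 CPM in RSPO3-OE, against 1.11 CPM in Ctrl (log2 ratio 2.62), Sertad1, a cyclin D kinase partner, with 112 and 40.3 CPM (1.48), and Sesn2, a sestrin that restrains mTORC1, with 15.3 and 7.80 CPM (0.97). The lowest were its relative Sesn1, with 7.57 CPM in RSPO3-OE, against 12.9 CPM in Ctrl (-0.78), Pidd1, a scaffold of the caspase-2 complex, with 1.59 and 2.66 CPM (-0.74), and Gadd45a, the p53-responsive relative of Gadd45b, with 16.9 and 27.9 CPM (-0.72). Of 13 p53 regulators measured, 0 were higher and 2 lower, with a median of -0.39. These were Rchy1 and the relative Trp63. Rchy1, a ubiquitin ligase for p53, stood at 35.0 CPM in RSPO3-OE, against 56.1 CPM in Ctrl (-0.68). Trp63 had 11 and 21 UMIs, with an interval of -2.26 to 0.06 that includes 0. Mdm4, the MDM2 partner, stood at 20.4 and 30.5 CPM, just inside 1.5-fold at -0.58. Chek2, a DNA damage kinase, stood at -0.53, and Ppm1d, the phosphatase that ends the response, at 0.26.

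Among 6 other kinase inhibitors and Gadd45 genes measured, 0 were higher and 1 lower, Gadd45a, with a median of -0.24. Cdkn3 stood at 0.32, Gadd45g at 0.12, Cdkn2c at -0.21 and Cdkn2d at -0.31. Of 16 G1 cyclins, kinases and RB family genes, 1 was higher and 0 lower, with a median of -0.07. That gene was Ccnd2, cyclin D2, at 8.73 CPM in RSPO3-OE, against 2.28 CPM in Ctrl (1.93), while Cdk6 stood at -0.23 and Skp2, which marks p27 for degradation, at -0.26. The 20 other division genes had 0 members past 1.5-fold either way and a median of -0.11, from Ccnb1 at 0.18 to Tyms at -0.51.

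Of 14 other BCL2 family genes in tumour cells, 4 were higher and 3 lower, with a median of 0.05. The lower ones were Bmf, a BH3-only factor, at 0.806 CPM in RSPO3-OE, against 1.79 CPM in Ctrl (-1.15), and the survival genes Bcl2 at 14.1 and 25.2 CPM (-0.84) and Bcl2l1 at 36.7 and 62.6 CPM (-0.77). Mcl1, a short-lived survival factor, stood at 294 and 204 CPM (0.53). Bcl2a1d (1.45) and Bcl2a1b (0.69), near-identical copies whose split is uncertain, are known from leukocytes. In tumour cells they stood at 0.27% and 0.203% of their macrophage level in RSPO3-OE and 0.124% and 0.113% in Ctrl, beside 0.14% and 0.13% for the macrophage gene C1qa. The part of macrophage RNA in these values was not tested. The other higher genes were Bik, with 17 and 10 UMIs, and Pmaip1, with 21 and 9. The Pmaip1 interval ran from -0.09 to 2.41 and so covers both directions. Of 14 genes of the ATF4 and CHOP stress response, which also drives Gdf15 and Sesn2, 2 were higher and 2 lower, with a median of -0.31. Atf3 stood at 293 CPM in RSPO3-OE, against 121 CPM in Ctrl (1.28), Atf4 at 0.27 and Ddit4 at -0.76.

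The 2 lists with most genes on one side were immediate early and senescence secretory genes. Of 16 immediate early and handling genes 13 were higher and 0 lower, with a median of 1.06, led by Zfp36 (1.38), Junb (1.38) and Nr4a1 (1.27), with Jund at -0.09. Of 19 senescence secretory genes 12 were higher and 0 lower, with a median of 1.09. The leading ones were Igfbp7 at 3.34 CPM in RSPO3-OE, against 0.0661 CPM in Ctrl (5.66), Igfbp3 at 3.37 and 0.104 CPM (5.02), and the chemokine Ccl8 at 24.5 and 2.09 CPM (3.55). Stromal cells also express these, and the summed fibroblast markers were 3626 CPM in RSPO3-OE, against 2426 CPM in Ctrl tumour cells. Hmgb1, a chromatin protein, stood at -0.55. The part of stromal cells in this list was not tested.

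In macrophages 5 of 30 other p53 targets were higher and 0 lower, beside 11% and 8.55% of all genes, with a median of 0.11. They were led by Sertad1 at 86.6 CPM in RSPO3-OE, against 38.3 CPM in Ctrl (1.18), and the polo-like kinase gene Plk2 at 96.1 and 45.6 CPM (1.07). Of 12 p53 regulators 1 was higher, Trp53bp1 (0.69), and of 16 G1 genes none passed 1.5-fold either way. Of 7 other inhibitors and Gadd45 genes 3 were lower and 0 higher, Cdkn2d at 27.1 and 52.1 CPM (-0.94), Cdkn3 at 13.7 and 24.7 CPM (-0.85) and Cdkn2b with 9 and 16 UMIs, an interval that includes 0, while Gadd45a stood at 0.36 and Gadd45g at -0.27. Division genes were lower as well, 11 of 20 by at least 1.5-fold with a median of -0.59, such as Cdc20 at 18.3 and 34.6 CPM (-0.92), and 206 of 1181 RSPO3-OE and 246 of 1164 Ctrl macrophages were dividing. Of 14 BCL2 family genes 2 were higher, among them Bcl2l11, which encodes BIM, at 78.8 and 40.1 CPM (0.97), and 1 was lower. Immediate early genes were higher in 10 of 16, Klf4 at 617 and 121 CPM (2.35) and Nr4a1 at 209 and 62.5 CPM (1.74), with Jun at -0.44. The ATF4 and CHOP genes had 0 of 13 higher and 2 lower, Ddit4 (-0.60) and Chac1 with 5 and 10 UMIs, around a median of 0.19, and the senescence secretory genes 6 of 18 higher and 1 lower, led by Ccl8 (2.84) and Cxcl1 (2.23).

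In T cells 7 of 30 other p53 targets were higher and 6 lower, beside 10% and 18.2% of all genes, with a median of 0.10. Immediate early genes were higher in 2 of 16 and lower in 3, with a median of -0.14, and the difference from the other classes was not tested. The other 7 lists had medians between -0.14 and 0.01.

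Across single tumour cells the correlations between members were low. With cells thinned to 5000 UMIs, Cdkn1a and Mdm2 had a Pearson r of 0.06 over 4186 RSPO3-OE cells and 0.02 over 4238 Ctrl cells, on log counts, and Trp53 and Gadd45b had -0.10 and -0.04. With other genes, Gadd45b and the early gene Junb had 0.19 in RSPO3-OE and 0.17 in Ctrl, and Trp53 and Top2a, which marks division, 0.15 and 0.12. The gene most like Cdkn1a among 7226 was the stress gene Ndrg1, with 0.14 in each library, then Eif4ebp1, Nfkbia, Eif1 and Sox9, whose lower value of the 2 libraries lay between 0.12 and 0.14. By the lower of the 2 libraries, the nearest to Cdkn1b was Malat1 (0.12), to Mdm2 Hspa4l (0.06), to Gdf15 Gadd45b (0.06) and to Ccng1 Lrp6 (0.04). Cells of a library share its depth and handling, and sparse counts pull r towards 0, so these values are a description and do not show whether a relation exists.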

How the data were processed

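One 10x single-cell library per group was analysed. Per the labels, the cells were captured as 3′ libraries. Per the submitters' processing notes, reads were processed with Cell Ranger 3.0.1 against mm10, while the deposited matrix headers name software version 3.1.0. The values deposited by the authors are raw UMI counts for each gene in each barcode, with no normalization, with totals of 155615189 in RSPO3-OE and 143881763 in Ctrl.

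Here cells with at least 200 genes and at most 20% mitochondrial UMIs were kept and doublets called by Scrublet (expected rate 0.05) were removed, 171 in RSPO3-OE and 95 in Ctrl, leaving 6993 and 6895 cells with a median of 18915 and 16627 UMIs. The libraries share 7 barcodes. Cells that met more than 1 class rule, 35 and 12, were left out of all classes. Counts were summed per class and library and scaled to CPM. Intervals are exact at 95%: binomial for ratios, Poisson for levels and Clopper-Pearson for shares. They cover counting error only, and no p-value was computed, since each group has 1 library. A gene was measured with at least 10 UMIs over both libraries and called past 1.5-fold, a log2 ratio of 0.585. Limits for 0 UMIs use 3 counts.

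The 10 members, the 9 gene lists and the class markers were chosen with earlier results of these data known. All members are named. From each list up to 3 genes at either end in tumour cells and up to 2 in macrophages were taken among those with at least 100 UMIs in the higher library. Trp63, Bik and Pmaip1 in tumour cells and Cdkn2b and Chac1 in macrophages were named after their values were seen, because they complete a small count. Alternatives were other scaling, thinning, filters and class limits, and splits chosen after seeing the data by handling, mitochondrial, interferon, stromal, monocyte, division, CD8 and Hmga2 UMIs. The ratio and interval code was tested on simulated data. Tools were scanpy 1.11.5, matplotlib 3.10.9, pandas 2.3.3, numpy 2.4.6 and scipy 1.17.1 under Python 3.11.15.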

Additional observations from a re-analysis of the deposited data

Results flagged for a closer look

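Gadd45b differed in opposite directions between cell classes under the same contrast of RSPO3-OE with Ctrl. Its log2 ratio was 1.98 in macrophages and 1.06 in T cells, but -0.27 in tumour cells. Among tumour cells it was -0.54 in dividing and 0.06 (-0.01 to 0.13) in non-dividing cells. Dividing T cells had 0.12 (-0.32 to 0.56). The difference between classes was not tested, since each class has 1 library per group.

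Members were also read in cells that none of the class rules took or that several took, 1204 in RSPO3-OE and 1212 in Ctrl, which no comparison above uses. The log2 ratio there was 1.92 for Cdkn1a, at 226 CPM in RSPO3-OE, against 59.95 CPM in Ctrl. It was 0.67 for Gadd45b, at 197 and 124 CPM. It was 4.0 for Cdkn2a, from 16 UMIs in 7 RSPO3-OE cells and 1 UMI in 1 Ctrl cell, and 12 of the 16 lay in 3 cells. Those 7 cells held fibroblast markers at 46293 CPM, with at least 3 such UMIs in 6 of them, neutrophil markers at 0 CPM and at least 3 Ptprc UMIs in 1 of them, and the part of fibroblasts was not tested. The unclassed cells as a whole were mixed, with Ptprc in 527 RSPO3-OE and 224 Ctrl cells and neutrophil genes at 963 and 171 CPM, and the part of that mixture was not tested. Of the 10 members, 3 were 1.5-fold higher there, beside 16.3% of 14040 genes.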

How the results depend on the processing

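No paired analysis was possible because each group has 1 library. Of the counts under all alternatives, 315 stayed within 1.5 times the main count and 77 moved further. Of the single-member ratios past 1.5-fold, 0 changed sign where measured. Smaller ratios did change sign: Trp53 in tumour cells kept its sign under 10 of 16 alternatives and Bax in T cells under 7 of 11. Cdkn1a stayed past 1.5-fold in tumour cells under all 16 alternatives (log2 ratio 1.32 to 1.86), in macrophages under 11 (1.0 to 1.20) and in T cells under 11 (2.44 to 3.44). Gadd45b stayed past it in macrophages under 11 (1.71 to 2.25), and in T cells under 10 of 11, with 0.12 in dividing cells alone. Cdkn1b passed 1.5-fold lower in tumour cells under 5 of 16, and Bbc3 passed 1.5-fold higher in dividing tumour cells under 6 of 10. Counts below are in the order tumour, dividing tumour, non-dividing tumour, macrophage and T cell unless named. With at least 100 UMIs, 1056, 906, 839, 741 and 398 genes were higher and 1606, 1463, 1326, 373 and 350 lower, against 2019, 1787, 1681, 1398 and 1101 higher and 2583, 2401, 2320, 1083 and 1995 lower at 10 UMIs. With no minimum, 3421, 3091, 2941, 2848 and 2036 were higher and 4291, 4103, 4026, 2353 and 4134 lower. Thinned to 2000 UMIs, 1144 genes and 2 members were lower in T cells and 0 members in macrophages, where Cdkn2a had too few UMIs to be measured. Thinned to 5000 UMIs, 1292 genes were higher in tumour and 1077 in dividing cells; members higher numbered 2 in tumour, 2 in dividing and 1 in non-dividing cells, with 1 lower in dividing cells; and dividing over non-dividing cells had 2 members higher in RSPO3-OE and 1 in Ctrl. The same thinning left 5 p53 targets and 1 BCL2 gene higher, and 4 regulators, 2 senescence genes and 1 division gene lower. A division limit of 6 gave 2 members higher and 2 lower in RSPO3-OE. A limit of 1 on thinned cells gave 2 higher in RSPO3-OE and 0 in Ctrl, where Trp53 was thus under 1.5-fold. In tumour cells 2 members were higher and 1 lower below and at or above the handling median and at or above the interferon median, and 2 were higher below the interferon and mitochondrial medians. The mean of cells' own CPM gave 1, 2 and 1 members lower in tumour, dividing and non-dividing cells, with 5 regulators, 1 senescence gene and 1 division gene lower. Median-of-ratios scaling gave 2 members higher in tumour and 3 in dividing cells. Stricter class limits gave 2 in tumour, 2 in dividing and 1 in non-dividing cells and 2 BCL2 genes higher. Cells without Y-linked UMIs gave 2 BCL2 genes and 2 dividing-cell members higher, as did at most 10% mitochondrial UMIs and at least 3 stromal UMIs for the 2 members. Non-dividing T cells alone had 1 member lower. The 116 RSPO3-OE and 408 Ctrl tumour cells under 3 stromal UMIs had 1189 genes higher, 941 in dividing cells, with 3 members higher and 1 lower, 2 and 2 in dividing cells, 2 G1 genes each way, 1 inhibitor higher, and 1 BCL2 gene, 3 division genes and 7 p53 targets lower. The cause was not tested for these moves. Rare members, Gdf15 and Cdkn2a, are limited by depth.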
